A study of Homo sapiens with 6 samples.

Results

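The genes described here are ANGPTL4 and 9 genes of fatty acid use linked to the peroxisome proliferator-activated receptors (PPARs). They were chosen by symbol from knowledge of the pathway, with earlier results of these data known. The 9 are the receptors PPARA, PPARD and PPARG, the lipid droplet coats PLIN2 and PLIN3, and the enzymes CPT1A, ACSL1, HADHA and ACADVL. All 10 were found among the 22701 genes of the deposited table. Polyadenylated RNA was sequenced from LX-2 cells, an established line of human hepatic stellate cells, the fat-storing cells that turn into collagen-producing cells in the injured liver. All cells were given TGF-β, which drives stellate cell activation, at a labelled dose of 5 µg/mL. Of the 6 libraries, 3 had in addition 20 µM LIG (ligustilide, a phthalide of Ligusticum and Angelica roots), and the other 3 had TGF-β alone. Cells without TGF-β were not analysed here, the labels give no treatment time, and the unit of the TGF-β dose, usually ng/mL, was not checked.

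PPARs are nuclear receptors that pair with retinoid X receptors and are switched on by fatty acids and their derivatives. Bound to direct repeats of a short half-site, they raise genes for fatty acid uptake, storage in droplets and oxidation, so that a cell flooded with fatty acids makes the proteins to handle them. ANGPTL4, a secreted inhibitor of lipoprotein lipase, is among their most responsive targets in many cell types, and it is also raised by hypoxia and by glucocorticoids. Quiescent stellate cells hold large retinoid-rich droplets and lose them on activation, and PPARγ is known for keeping the quiescent state.

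The sequences just upstream of the RefSeq starts of 3 genes are shown. ANGPTL4 and G0S2, a droplet protein that inhibits the lipase ATGL, were chosen for the highest log2 changes among the tested lipid genes. The change of G0S2 did not pass. PLIN2 was chosen as a classic PPAR target with a change near 0. The sequences are the 250 bases before the RefSeq start (GRCh38.p14), 5′ to 3′ on the gene's strand. The ANGPTL4 stretch is chr19:8363905-8364154 (+ strand), that of G0S2 chr1:209675162-209675411 (+ strand) and that of PLIN2 chr9:19127493-19127742 (- strand). The ANGPTL4 and PLIN2 stretches lie inside the GENCODE gene spans given below, which reach further upstream than these RefSeq starts. Capitals mark matches, on either strand, to ACGTG, the core bound by hypoxia-inducible factors, or to TGACNNNGC, the core of the antioxidant response element.
ANGPTL4: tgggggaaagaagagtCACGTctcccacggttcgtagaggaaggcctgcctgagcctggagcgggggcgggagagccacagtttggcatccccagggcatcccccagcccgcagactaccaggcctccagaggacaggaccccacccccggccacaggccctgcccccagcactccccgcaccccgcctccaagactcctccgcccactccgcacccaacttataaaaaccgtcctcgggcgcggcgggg
G0S2: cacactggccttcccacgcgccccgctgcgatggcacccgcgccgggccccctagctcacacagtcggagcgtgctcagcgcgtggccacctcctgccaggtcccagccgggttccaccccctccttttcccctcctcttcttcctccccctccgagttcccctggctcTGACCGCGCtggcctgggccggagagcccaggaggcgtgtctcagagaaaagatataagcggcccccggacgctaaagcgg
PLIN2: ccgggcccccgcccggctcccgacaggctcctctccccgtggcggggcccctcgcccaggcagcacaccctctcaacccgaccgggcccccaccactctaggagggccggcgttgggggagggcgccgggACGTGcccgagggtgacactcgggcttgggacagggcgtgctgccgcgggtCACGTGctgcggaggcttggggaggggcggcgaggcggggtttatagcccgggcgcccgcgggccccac
ANGPTL4 held 1 ACGTG match, on the opposite strand and 234 bases before the start, and PLIN2 held 3, of which 2 overlap as a palindrome. G0S2 held 1 TGACNNNGC match, 81 bases before the start. Neither the PPAR half-site AGGTCA nor its direct repeat AGGTCANAGGTCA was found in these 3 windows. Only exact matches in 250 bases were searched, so their absence cannot show that any of the 3 genes lacks a PPAR element. Of 35116 RefSeq promoters of the same length, 18.5% held ACGTG, 10.9% TGACNNNGC, 12.1% AGGTCA and 0.0171% the direct repeat. All 10 members were matched in the promoter table, and of these only PPARG, in some of its alternative promoters, held AGGTCA. The well-known PPAR element of ANGPTL4 lies in the third intron, outside the window searched.

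Among the 9 members with enough signal to test, ANGPTL4 was the 1 that changed with LIG. It rose 1.84 times, while the receptors, droplet coats and oxidation enzymes differed by at most 22.8% from their TGF-β level and did not pass. Tests used limma on log2(FPKM + 1) over the 10695 genes that averaged 1 FPKM or more (FPKM being fragments scaled to gene length and library total), with Benjamini-Hochberg adjustment at 0.05. The 1 of 9 members called stands beside 0.692% of all genes called (74), with 0.187% called higher and 0.505% lower. As members were chosen with earlier results of these data known, these shares are background only and give the call no independent support. The change was above 0 in 8 of 9 members (HADHA, at 0.01, lay below 0 under other scalings), with a median log2 change of 0.15, against 0.03 over all genes tested, of which 6508 lay above 0 and 4187 below. Of the 8 members other than ANGPTL4, 0 passed by limma, 2 had an unadjusted p under 0.05 (8.41% of all genes did), and by limma voom on recovered fragments 0 passed and 2 had an unadjusted p under 0.05 (voom called 0.804% of all genes). The libraries of the groups did not overlap in 4 of 9 members, each higher with LIG. Of all 10695 genes tested, 970 (9.07%) were apart and higher with LIG, and a further 720 were apart and lower. Nothing in the labels shows the replicates to be separate cultures, and p-values therefore cover the spread among these 6 samples alone.

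Library totals lay between 38401783 and 39260090 fragments, and the median over tested genes was 1478 fragments in a library. TGF-β replicate 2 and LIG replicate 3 stood apart from the rest by summed FPKM (348518 and 362034, against 324022 to 328949), and values without both of them, a choice made after the data were seen, are given below. Of 14 stellate cell markers in the table, 8 had a mean of at least 1 FPKM, led by VIM, with summed levels of 3380 to 3590 FPKM with TGF-β and 3030 to 3440 FPKM with LIG, while DES, RELN and HGF, also on that list, were near 0. Of the 8, 2 fell (COL3A1, a collagen chain, from 20.3 ± 2.41 FPKM down to 9.96 ± 1.6 FPKM, adjusted p = 0.0144, and SPARC, a collagen-binding glycoprotein, adjusted p = 0.0435), 6 did not pass, and 5 were lower and 1 higher at an unadjusted p under 0.05. The part of these changes in the results on the members was not tested. ACTA2, smooth muscle actin, was among the 6, at 2.77 ± 0.661 and 2.97 ± 0.247 FPKM (SD, n = 3). Summed markers of hepatocytes (3.54 to 4.07 and 3.31 to 4.89 FPKM), macrophages (16.2 to 18.2 and 16.7 to 19.7 FPKM) and endothelium (0.458 to 0.652 and 0.383 to 0.548 FPKM) overlapped between the groups. Epithelial markers, led by KRT18 with EPCAM near 0, summed to 383 to 418 FPKM with TGF-β and 284 to 351 FPKM with LIG, and their part in the results was not tested. The 5 adipocyte markers in the table each had a mean under 0.1 FPKM and summed to 0.0538 to 0.0686 FPKM with TGF-β and 0.099 to 0.18 FPKM with LIG.

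Of the receptors, PPARD, which serves fatty acid use in most cell types, was the most abundant (chr6:35342558-35428191). Its level was 11.1, 9.64 and 11.4 FPKM in the 3 TGF-β libraries (replicates 1 to 3, here and below) against 10.6, 10.48 and 9.94 FPKM in the 3 LIG libraries. The groups overlapped, and the log2 change was -0.04 ± 0.08 (SE; limma adjusted p = 0.958). PPARA, the receptor of the fasting liver (chr22:46150521-46243756), was at 2.82, 1.87 and 2.79 FPKM with TGF-β and 3.36, 3.40 and 1.97 FPKM with LIG. The low value in each group was that of the library that stands apart, at 0.667 and 0.582 times the mean of the other 2 of its group, and the log2 change of 0.15 ± 0.17 did not pass (adjusted p = 0.923). PPARG, the receptor that drives fat storage (chr3:12287368-12434356), had the lowest level of the 10 genes. It was at 0.279, 0.254 and 0.256 FPKM with TGF-β and 0.348, 0.269 and 0.331 FPKM with LIG, from 70 to 95 fragments per library. This is below the level tested, and the groups overlapped. Tested without the filter on low values, its log2 change was 0.06 ± 0.03 (adjusted p = 0.784).

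**Figure D1:**
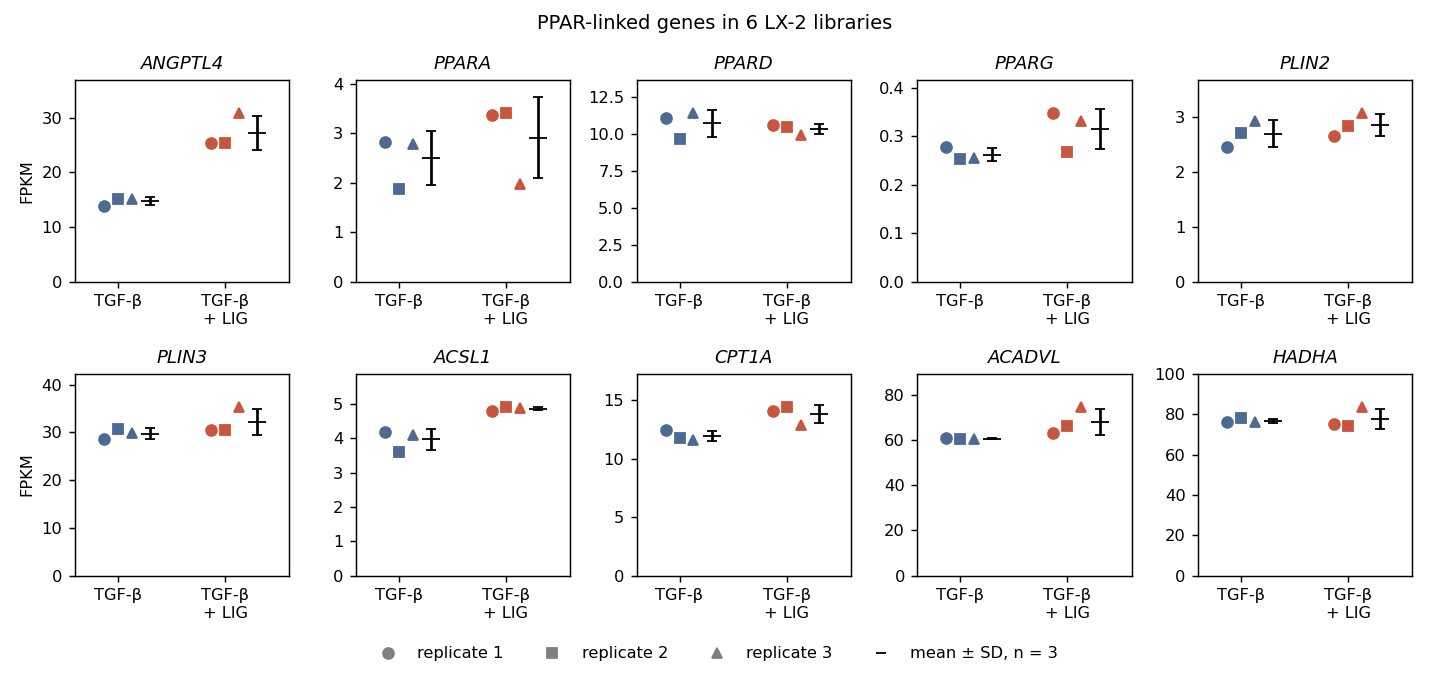
FPKM of the 10 genes in each of the 6 libraries, each gene on its own axis from 0, with marker shapes for the replicate and bars for the mean ± SD (n = 3). ANGPTL4 lies at 13.93 to 15.24 FPKM with TGF-β and 25.43 to 30.81 FPKM with LIG, and the groups also do not overlap in ACSL1, CPT1A and ACADVL.

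ANGPTL4 (chr19:8363289-8374373, + strand) measured 13.9, 15.2 and 15.2 FPKM in the TGF-β libraries, against 25.4, 25.4 and 30.8 FPKM in the LIG libraries. Every LIG library lay above every TGF-β library, and the highest was LIG replicate 3. The mean went from 14.8 ± 0.733 to 27.2 ± 3.11 FPKM (SD, n = 3), or 0.84 ± 0.09 (SE) on the log2 scale (limma adjusted p = 0.00632). Among all genes tested it had the seventh largest rise and ranked 19 by p. The values rest on 1050 to 2365 fragments per library. ANGPTL4 shares 1 exon base with RAB11B-AS1 on the opposite strand. Leaving out TGF-β replicate 3 ended the call (adjusted p = 0.0531) with a log2 change of 0.85.

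The change of ANGPTL4 was then set against that of each other member, as values with no test. Taken library by library, the ANGPTL4 change exceeded that of PLIN3 by 0.73 ± 0.03 on the log2 scale (SE), of HADHA by 0.82 ± 0.05, of ACADVL by 0.68 ± 0.05 and of PLIN2 by 0.77 ± 0.06. It exceeded that of ACSL1 by 0.59 ± 0.12, of CPT1A by 0.64 ± 0.15, of PPARD by 0.88 ± 0.15 and of PPARA by 0.68 ± 0.32. In each of the 8 pairs the groups did not overlap. All 8 pairs share ANGPTL4, whose own groups were apart, so they are not separate observations. The difference from PPARA had the widest error. As a share of the summed FPKM of the 10 genes, ANGPTL4 made up 6.54, 7.11 and 7.04% with TGF-β and 11, 10.9 and 12% with LIG. In bulk RNA, a change in the number of cells that express a gene and a change in RNA per cell cannot be told apart.

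**Figure D2:**
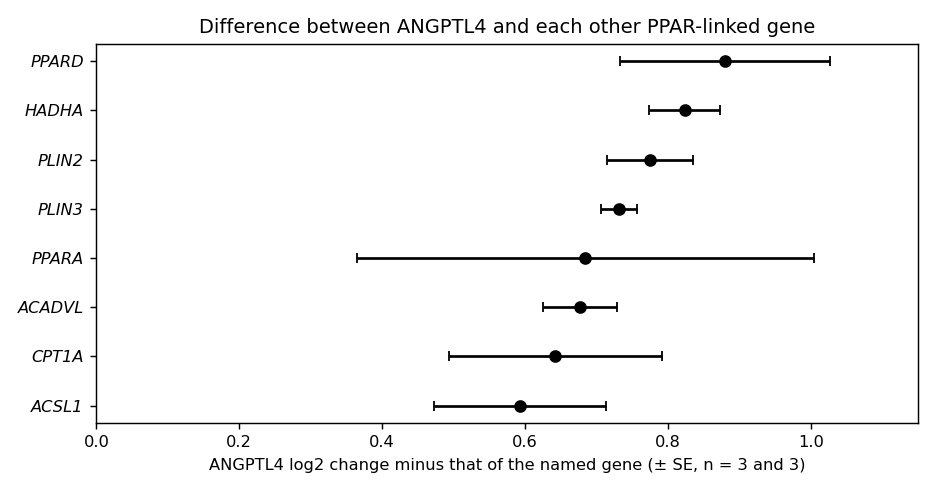
Log2 change of ANGPTL4 minus that of each other tested member (x axis), as the mean and standard error over 3 libraries a group. All 8 differences lie above 0, from 0.59 for ACSL1 to 0.88 for PPARD.

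The droplet coats did not pass. PLIN2, the coat that is stabilised by stored fat (chr9:19108375-19149290), was at 2.45, 2.71 and 2.92 FPKM with TGF-β and 2.66, 2.83 and 3.06 FPKM with LIG, from 215 to 274 fragments per library. The groups overlapped, with a log2 change of 0.06 ± 0.08 (adjusted p = 0.934). PLIN3, a coat found on small droplets and in the cytosol (chr19:4838341-4867768), was at 28.6, 30.8 and 29.99 FPKM with TGF-β and 30.6, 30.5 and 35.3 FPKM with LIG. The groups overlapped here too, and the log2 change was 0.10 ± 0.08 (adjusted p = 0.819). PLIN3 shares 502 exon bases with an antisense gene, and whether counting used strand is not given in the sources used here.

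ACSL1 and CPT1A, the members that activate fatty acids and bring them into mitochondria, lay higher in every LIG library, without passing; ACSL3, a relative of ACSL1 described below, lay lower in every one. ACSL1, which joins fatty acids to coenzyme A (chr4:184755595-184826818), was at 4.19, 3.62 and 4.10 FPKM with TGF-β and 4.81, 4.91 and 4.90 FPKM with LIG. The groups did not overlap and the mean was 22.8% higher, with a log2 change of 0.24 ± 0.07 (limma adjusted p = 0.295, unadjusted p = 0.00836). CPT1A, the carnitine transferase that limits the entry of fatty acids into mitochondria (chr11:68754620-68844410), was at 12.4, 11.8 and 11.6 FPKM with TGF-β and 14.1, 14.4 and 12.9 FPKM with LIG. Again the groups did not overlap, and the log2 change was 0.19 ± 0.07 (limma adjusted p = 0.428, unadjusted p = 0.0201). With both outlying libraries left out, CPT1A was among the 497 of 10695 genes that passed (log2 change 0.23, adjusted p = 0.0388). ACSL1 was not (0.19, adjusted p = 0.128).

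The enzymes inside the mitochondrion were the most abundant members. ACADVL, the dehydrogenase that opens the oxidation of very long chains (chr17:7217125-7225273), was at 61.0, 60.3 and 60.6 FPKM with TGF-β and 63.3, 66.1 and 74.6 FPKM with LIG. The groups did not overlap, with LIG replicate 3 the highest, and the log2 change was 0.16 ± 0.07 (adjusted p = 0.638). HADHA, the α subunit of the trifunctional protein (chr2:26190635-26244726), was at 76.2, 78.0 and 76.4 FPKM with TGF-β and 75.1, 74.4 and 83.6 FPKM with LIG. The groups overlapped, and the log2 change of 0.01 ± 0.07 (adjusted p = 0.989) was below 0 without LIG replicate 3 (-0.04) and under TPM, quantile, median and voom scaling (-0.0106 to -0.0005). With both outlying libraries left out, the log2 changes were 0.77 for ANGPTL4 (adjusted p = 0.00022), 0.20 for PPARA, -0.09 for PPARD, 0.03 for PLIN2, 0.06 for PLIN3, 0.09 for ACADVL and -0.03 for HADHA, with ANGPTL4 and CPT1A the members that passed.

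By mean FPKM, which is per length, the order was HADHA (77.3), ACADVL (64.3), PLIN3 (30.9), ANGPTL4 (21.0), CPT1A (12.9), PPARD (10.52), ACSL1 (4.42), PLIN2 (2.77), PPARA (2.70) and PPARG (0.289). The ranges of neighbours overlapped between HADHA and ACADVL, between PLIN3 and ANGPTL4, between ANGPTL4 and CPT1A, and between PLIN2 and PPARA. ANGPTL4 had the widest range of the 10, with its highest library at 2.21 times its lowest, while HADHA had the narrowest at 1.12 times.

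**Figure D3:**
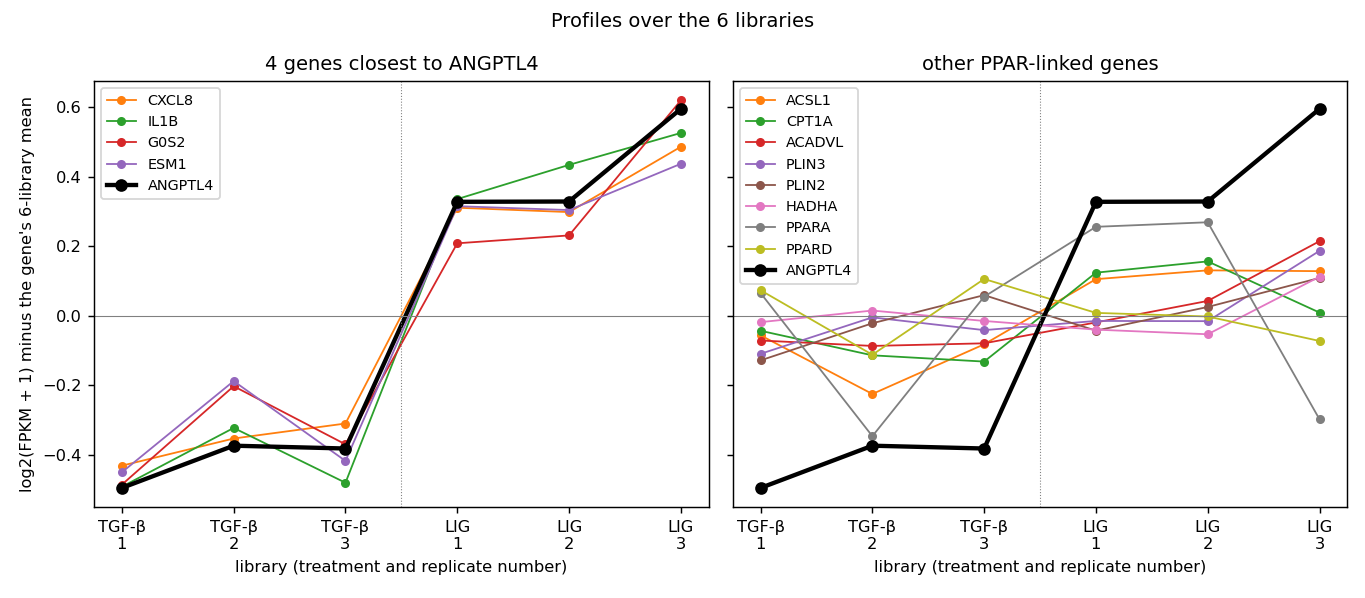
Log2(FPKM + 1) in each of the 6 libraries, centred on each gene's own mean, for the 4 genes closest to ANGPTL4 (left) and the other tested members (right); lines only join the points of a gene. The 4 genes were picked for their likeness to ANGPTL4 in these same libraries. Like ANGPTL4, they lie below 0 in all TGF-β and above 0 in all LIG libraries, which follows from that choice. PPARA dips in TGF-β replicate 2 and LIG replicate 3.

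Over the 6 libraries, the profiles most like that of ANGPTL4 were those of other genes than the members. The measure was the mean absolute difference of centred log2 values, ranked over 10694 genes, as a description with no test. The nearest were CXCL8, the interleukin-8 gene (0.05), IL1B, the interleukin-1β gene (0.06), G0S2 (0.07) and ESM1, an endothelial proteoglycan (0.08). CXCL8 was at 10.3 ± 0.479 FPKM without LIG and 17.8 ± 1.39 FPKM with it, and its groups did not overlap. As these genes were picked by their likeness in the same 6 libraries, groups that lie apart are no separate finding. The measure largely follows the size of the rise, so the members rank by it much as they do by their change. ACSL1 ranked 195 by likeness and 208 by rise, CPT1A 437 and 453, and PPARD 8178 and 8196.

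Among the lipid genes tested, G0S2 had the next largest log2 change. Its levels were 173, 210.4 and 187 FPKM in the TGF-β libraries, against 280.2, 285 and 373 FPKM in the LIG libraries. Every LIG library lay above every TGF-β library, but the spread was wide. The log2 change of 0.71 ± 0.13 did not pass (limma adjusted p = 0.0667). It passed in 6 of 19 alternatives, among them voom on recovered fragments (adjusted p = 0.0467) and both outlying libraries left out (adjusted p = 0.00027). It did not pass in 13, among them no filter on low values (adjusted p = 0.265), the replicate block (0.167) and leaving out any 1 library but LIG replicate 3 (0.128 to 0.348). G0S2 also had the highest mean level of its list, followed by AUP1. PNPLA2, the gene of the lipase ATGL that G0S2 inhibits, was at 16.9 ± 0.527 and 18.6 ± 2.24 FPKM (limma adjusted p = 0.802).

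The other genes of PPAR signalling and lipid use were read from 7 lists of 118 genes in all, 108 of them in the table and 71 tested. By limma 0 rose and 0 fell, and 7 had an unadjusted p under 0.05 (3 higher, 4 lower). Voom called 1 (G0S2), with 5 under 0.05 unadjusted. Over all genes tested, limma called 0.692% and voom 0.804%, and 8.41% had an unadjusted p under 0.05 by limma. At these shares few or no calls are likely in any list of this size. The lack of calls, here and in the lists below, is therefore no result about the lists. The median log2 change of the 71 was 0.03, as over all genes, with 45 above 0 and 26 below. With both outlying libraries left out, G0S2 rose and 5 fell: ACSL3, UCP2, ACOX3, LRP1 and ANGPTL2. In that setting 497 of all 10695 genes tested were called, 209 higher and 288 lower.

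Of 13 tested receptor partners and coregulators, 0 passed by limma, 0 had an unadjusted p under 0.05 by limma or voom, and 0 passed by voom. RXRA, the PPAR partner, was at 1.47 ± 0.204 and 1.59 ± 0.0542 FPKM (adjusted p = 0.902). MED1, a Mediator subunit that binds nuclear receptors, was at 30.9 ± 6.09 and 32.7 ± 6.74 FPKM (adjusted p = 0.978). SIRT1, a deacetylase that acts on the coactivator PGC-1α, was at 6.38 ± 0.330 and 6.80 ± 0.421 FPKM (adjusted p = 0.873).

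Among 13 tested PPAR target genes outside the members, 0 passed by limma, with 2 under 0.05 unadjusted, both lower, and by voom 0 passed with 2 under 0.05 unadjusted. These were ACSL3, an acyl-CoA synthetase of droplets, at 49.4 ± 1.38 and 42.4 ± 1.25 FPKM (adjusted p = 0.277), and UCP2, a mitochondrial carrier, at 7.81 ± 0.576 and 6.36 ± 0.266 FPKM (adjusted p = 0.285). For both, the groups did not overlap. HILPDA, a droplet protein raised by PPARs and hypoxia, was at 7.38 ± 0.416 and 6.72 ± 0.219 FPKM (adjusted p = 0.744). HADHB, the β subunit of the trifunctional protein, was at 52.2 ± 3.25 and 52.6 ± 5.92 FPKM (adjusted p = 0.994). The target genes LPL, PDK4, CD36, FABP4, PLIN1 and PLIN4 were below the level tested and were picked here after their values were seen. LPL, the lipase that ANGPTL4 inhibits, held at most 1 fragment in a library, PDK4 at most 4 and CD36 at most 21.

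No gene of the oxidation lists passed, where limma called 0.692% of all genes tested. Of 17 tested mitochondrial genes, 0 passed and 0 had an unadjusted p under 0.05, by limma or voom, although 14 had a change above 0 (median 0.05). SLC25A20, the carnitine carrier that works after CPT1A, was at 6.25 ± 0.932 and 7.79 ± 1.25 FPKM (adjusted p = 0.615), and ECHS1, an enoyl-CoA hydratase, at 78.1 ± 4.89 and 81.4 ± 10.9 FPKM (adjusted p = 0.965). Of 12 peroxisomal genes, 0 passed by limma or voom and 1 had an unadjusted p under 0.05 by each. By limma it was ACOX3, an acyl-CoA oxidase, at 7.29 ± 0.439 and 6.18 ± 0.202 FPKM (adjusted p = 0.387).

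Of 12 tested genes of droplets and lipolysis, 0 passed by limma, with 2 under 0.05 unadjusted, and voom called 1, G0S2. LDAH, a droplet hydrolase, was at 2.87 ± 0.188 and 3.34 ± 0.197 FPKM (adjusted p = 0.592), and AUP1, a droplet protein, at 45.4 ± 3.31 and 51.6 ± 4.12 FPKM (adjusted p = 0.621). Of 12 tested genes of uptake, binding and activation, 0 passed by limma or voom, with 2 and 1 under 0.05 unadjusted. SLC27A4, a fatty acid transporter, was at 7.72 ± 0.509 and 9.20 ± 0.976 FPKM (adjusted p = 0.522). In the lipoprotein lipase and ANGPTL list, 14 of 16 genes were in the table and 4 were tested, and 0 passed by limma or voom, with 1 under 0.05 unadjusted by each. ANGPTL2, a secreted relative of ANGPTL4, lay in the other direction, at 5.40 ± 0.624 and 4.25 ± 0.300 FPKM (adjusted p = 0.366). FURIN, a protease that can cleave ANGPTL4, was at 48.4 ± 2.53 and 52.6 ± 2.17 FPKM (adjusted p = 0.744).

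**Figure D4:**
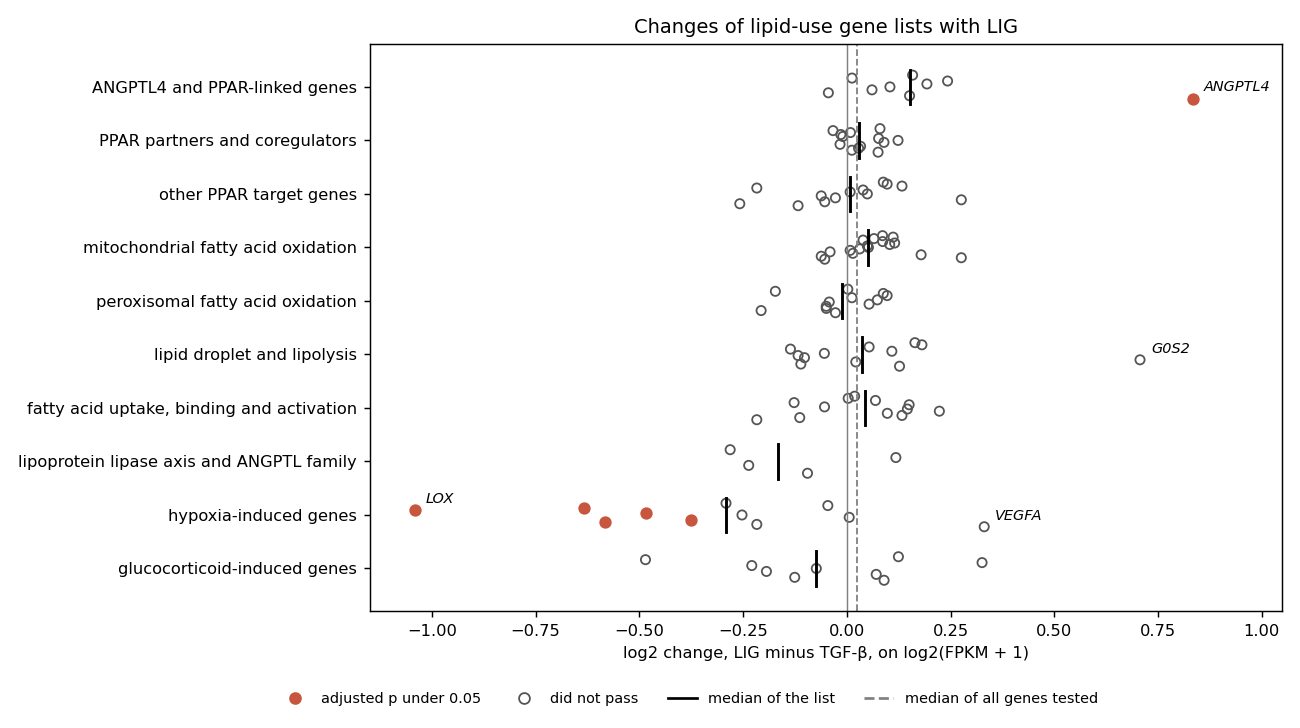
Log2 changes of single genes (points; filled where the limma adjusted p is under 0.05) by list, with the median of each list as a black bar and that of all genes tested as a dashed line. ANGPTL4 at 0.84 and G0S2 at 0.71 lie far right of the other lipid genes, and the 5 filled hypoxia genes lie left of 0.

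Genes of other inputs known to raise ANGPTL4 were read in the same way. Whether these inputs acted on ANGPTL4 here was not tested. Of 11 tested hypoxia-induced genes outside the members, 0 rose and 5 fell (LOX, AK4, P4HA1, BNIP3 and PDK1). Of all genes tested, 0.505% were called lower. As the lists were chosen with earlier results of these data known, this share is background only and gives the calls no independent support. The median log2 change of the 11 was -0.29. LOX, the collagen crosslinking enzyme, dropped to 14.8 ± 1.2 FPKM from 31.5 ± 0.919 FPKM (log2 change -1.04 ± 0.07, adjusted p = 0.00185). BNIP3, which marks mitochondria for removal, dropped to 41.3 ± 4.2 FPKM from 62.2 ± 3.57 FPKM (adjusted p = 0.029). VEGFA, the vascular growth factor, lay in the other direction, at 14.8 ± 0.746 and 18.8 ± 0.609 FPKM, with groups that did not overlap and no call (adjusted p = 0.0892). Without any 1 library the number that fell was 1 to 4. Of 9 tested glucocorticoid-induced genes, 0 passed by limma or voom and 3 had an unadjusted p under 0.05 by each, all lower by limma. By limma, 8.41% of all genes tested had an unadjusted p under 0.05. CRISPLD2, a secreted glycoprotein, was at 9.99 ± 1.13 and 6.84 ± 0.610 FPKM (adjusted p = 0.097), and MT2A, a metallothionein and the most abundant of the list, at 1111 ± 127 and 1412 ± 334 FPKM (adjusted p = 0.699).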

How the data were processed

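The authors deposited FPKM values of the 6 LX-2 libraries in a single table. DESeq2, fastp, HISAT2 2.1.0 and GRCh38.p13 appear without roles in what the submitters' processing notes list; the counting tool, annotation and use of strand are not given in the sources used here. The 10695 of 22701 genes whose mean FPKM reached 1 were tested as log2(FPKM + 1) with limma 3.58.1 (group only, trended empirical Bayes, two-sided, Benjamini-Hochberg at 0.05; 4 residual and 4.10 prior degrees of freedom), LIG minus TGF-β. This scale understates the change of low genes. Fragments were recovered from the steps of the values (100.0% of values above 0 were whole within 0.01) and used for depth and for limma voom with TMM factors, an alternative. Coordinates came from GENCODE release 29 (GRCh38) and promoters from RefSeq (GRCh38.p14). Named genes were all members, the genes of each list that passed or had the smallest adjusted p (up to 4), and those with the highest FPKM (2), of which some are printed and some are not reported here. Members and lists were chosen with earlier results of these data known. The code was tested on simulated data. Python 3.11.15, numpy 2.4.6, pandas 2.3.3, matplotlib 3.10.9 and R 4.3.3 were used.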

Additional observations from a re-analysis of the deposited data

How the results depend on the processing

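ANGPTL4 kept its direction in all 19 alternatives (log2 change 0.73 to 0.88) and its call in 17. It missed the threshold with no filter on low values (0.84, adjusted p = 0.0681) and without TGF-β replicate 3 (0.85, adjusted p = 0.0531); leaving out each library gave 0.75 to 0.88. The number of members called was 4 with library quality weights (ANGPTL4, CPT1A, ACSL1 and ACADVL), 2 without the libraries that stand apart, 0 with no filter and 0 to 1 leaving out each library. The number of genes called was 1891 with weights, 14 with no filter, 497 without the libraries that stand apart and 11 to 93 leaving out each library, against 74. Of the calls, 27% were higher, against 59.1% with weights. PLIN2 reversed with weights (-0.0214). HADHA reversed with TPM rescaling (-0.0080), quantile normalization (-0.0005), median centring (-0.0084), voom (-0.0106), weights (-0.0308), without LIG replicate 3 (-0.0406) and without the libraries that stand apart (-0.0300), and leaving out each library gave -0.0406 to 0.0423. Of the 71 lipid genes outside the members, 9 were called higher and 6 lower with weights, and the 5 hypoxia-induced genes called lower became 8 with weights, 3 at a mean FPKM of at least 5, 1 with no filter and 2 with the replicate block. The cause of these shifts was not tested. Same-numbered libraries deviated from their group means with correlations of 0.47, -0.57 and -0.34, and libraries of unlike number with -0.61 to 0.68. The highest was between TGF-β replicate 2 and LIG replicate 3, the libraries that stand apart. These values therefore cannot show whether the numbers pair libraries. With the replicate block, 22 genes passed, ANGPTL4 among them (adjusted p = 0.029).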
